A study of Mus musculus with 16 samples.

Results

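The genes described here encode the molecules through which a mouse oocyte and its follicle cells address each other. They are the oocyte ligands Gdf9, Bmp15, Bmp6 and Fgf8, the receptor Kit with its ligand Kitl, the connexins Gja4 and Gja1, the secreted oocyte protein Oosp1 and the adhesion molecule Cdh1. They were chosen by gene name, and all 10 were found among the 27987 gene names of the expression table, each with 1 of its 28618 entries. The data are RNA-seq libraries of fully grown oocytes at the germinal vesicle (GV) stage and of ovulated eggs at metaphase II (MII), 4 biological replicates in each of 4 groups.

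The genotypes were wildtype (WT) and Zp3-Cre; Psma7 flox/flox, called Psma7 cKO, in which the gene of a 20S proteasome subunit is deleted. The Zp3 promoter drives Cre in growing oocytes only, so the follicle cells kept the gene and the oocyte lost it after growth had begun. The floxed line has a C57BL/6 background. Females of 3 to 4 weeks received 5 IU of pregnant mare serum gonadotropin (PMSG), and GV oocytes were taken 44 h later. For eggs, human chorionic gonadotropin (hCG) was given at 44 h, and the eggs were flushed from the oviducts 14 to 16 h afterwards and freed of cumulus cells with 0.3% hyaluronidase. Each library came from 5 pooled oocytes according to the labels, while the study's methods name another number of cells per sample. How the eggs were selected for sequencing is not stated in the sources used here. It is therefore not known whether all oocytes of the MII libraries had completed the first meiotic division. The study reports that some ovulated cKO oocytes lacked the first polar body and that some remained at the GV stage.

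An oocyte and the surrounding granulosa cells grow together by exchanging signals in both directions. GDF9 and BMP15 are secreted by the oocyte as members of the TGF-beta family and act on serine/threonine kinase receptors of granulosa cells, through SMAD2 and SMAD3 for GDF9 and through SMAD1, SMAD5 and SMAD8 for BMP15 and BMP6. KIT is a receptor tyrosine kinase of the oocyte that answers KIT ligand from granulosa cells, and it feeds into the PI3K pathway. Connexin 37, the product of Gja4, forms the gap junctions between oocyte and cumulus cells, connexin 43, the product of Gja1, joins the granulosa cells to each other, and E-cadherin, the product of Cdh1, holds adjoining cell membranes together. Fully grown oocytes transcribe little or nothing, so between the GV and MII stages an mRNA is stored, read or degraded. Elements in its 3′ untranslated region (UTR) take part in that choice, among them the cytoplasmic polyadenylation element (CPE), a U-rich motif near the polyadenylation hexamer that is bound by CPEB proteins.

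The 3′ ends are shown first, because most of the differences below lie between the GV and MII stages. Each line gives 30 bases of sense strand, written as DNA 5′ to 3′, that end with the polyadenylation hexamer nearest the 3′ end of the chosen GENCODE M21 transcript (GRCm38). Capitals mark that hexamer, AATAAA or ATTAAA, and any CPE lying wholly within the line, searched as TTTTAT or TTTTAAT on the sense strand only.
Gdf9: tgctgtggTTTTATgtgacggaagAATAAA
Bmp15: ttatgtattttcttaatcttaaagAATAAA
Kit: ctgttgacagttctgaagaattctAATAAA
Kitl: ataaacatatactttattgttctaAATAAA
Gja4: tagttccactgtttatgatcctcaAATAAA
Cdh1: ctaagatgcatTTTTATgaaTTTTATTAAA
In Gdf9 the CPE ended 10 bases before the hexamer. In Cdh1 a CPE lay upstream and another overlapped the hexamer by 2 bases. The lines of Bmp15, Kit, Kitl and Gja4 held a hexamer and no CPE. The last 40 bases of the transcripts of Bmp6, Fgf8 and Oosp1 held neither form of the hexamer, and the line of Gja1 is left out because its mRNA was close to absent.

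Over the whole 3′ UTR, the stop codon included, Kitl held 8 such elements, Cdh1 6, Bmp15 3, Kit 3, Bmp6 2, Gja1 2, Gdf9 1 and Oosp1 1. Fgf8 and Gja4 held 0. Their 3′ UTRs were short, at 195 nt for Fgf8 and 549 nt for Gja4. The median was 970.5 nt over 8294 expressed genes with a 3′ UTR of at least 100 nt. The 3′ UTR of Oosp1 had 233 nt and that of Kitl 4438 nt. A match of letters is a description of the transcript and does not show that a protein binds there.

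The promoters of the 3 genes with the highest GV levels for which the RefSeq table (GRCm38.p6) held a sequence follow, from 250 bases before the transcription start to 50 bases after it. Capitals mark E-boxes, CANNTG, the motif that FIGLA, an oocyte factor, binds as a dimer. The motif reads the same on both strands and occurred in 72.3% of 32851 promoters of this length.
Oosp1, chr19:11691002-11691301, minus strand: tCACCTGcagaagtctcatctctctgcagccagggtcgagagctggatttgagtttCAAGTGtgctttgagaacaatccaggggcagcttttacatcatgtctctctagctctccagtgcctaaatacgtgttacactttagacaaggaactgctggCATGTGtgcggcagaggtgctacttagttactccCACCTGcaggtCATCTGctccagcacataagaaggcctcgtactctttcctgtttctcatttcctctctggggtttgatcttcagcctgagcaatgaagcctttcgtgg
Bmp15, chrX:6320675-6320974, minus strand: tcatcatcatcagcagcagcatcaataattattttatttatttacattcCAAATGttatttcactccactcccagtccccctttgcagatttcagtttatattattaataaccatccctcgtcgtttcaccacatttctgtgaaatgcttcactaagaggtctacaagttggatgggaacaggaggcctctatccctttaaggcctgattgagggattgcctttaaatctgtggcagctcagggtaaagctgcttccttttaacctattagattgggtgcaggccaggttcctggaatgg
Gja4, chr4:127313990-127314289, minus strand: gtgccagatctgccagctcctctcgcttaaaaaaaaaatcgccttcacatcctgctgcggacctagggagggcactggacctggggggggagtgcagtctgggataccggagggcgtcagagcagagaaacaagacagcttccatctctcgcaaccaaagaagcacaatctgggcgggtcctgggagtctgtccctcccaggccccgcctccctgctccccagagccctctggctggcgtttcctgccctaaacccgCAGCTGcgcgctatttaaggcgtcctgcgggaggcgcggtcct
The Oosp1 promoter held 5 E-boxes, Bmp15 held 1 and Gja4 held 1. That of Gja4 read CAGCTG, a form found in 16.3% of all promoters, and lay 7 bases downstream of the start. The promoters of Gdf9, Fgf8 and Cdh1 were not analysed here.

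The genes are spread over the genome (GENCODE M21, GRCm38). Oosp1 lies at chr19:11667460-11691150 and Fgf8 at chr19:45736798-45742915, both on the minus strand. Bmp15 is X-linked, at chrX:6314107-6320721 on the minus strand, Gdf9 lies at chr11:53431023-53437904 on the plus strand and Gja4 at chr4:127311421-127314039 on the minus strand. Kit lies at chr5:75574916-75656722 and Kitl at chr10:100015630-100100416, both on the plus strand. Bmp6 was the only one whose exons overlapped those of another gene: 224 bases, 5.7% of its exon length, are shared with Txndc5 on the opposite strand, and the library method does not keep strand, so reads from these bases cannot be assigned to either gene.

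Levels are FPKM, fragments per kilobase of transcript scaled to the depth of the library. FPKM is a share of the library, so less mRNA per oocyte and fewer oocytes in a pool cannot be told apart, and with oligo-dT priming neither can fewer molecules and shorter poly(A) tails. A rise or fall between libraries or stages is therefore one in this share, and the amount of mRNA per oocyte was not estimated. The depth of the libraries was estimated at 10.5 to 15.6 M fragments, and the replicates of a group correlated at r = 0.965 to 0.992 across genes. Psma7 was lower in every cKO library than in any WT library. It stood at 142 to 201 FPKM in WT and 11.1 to 17.98 FPKM in cKO GV oocytes, and at 97.7 to 172 FPKM in WT and 13.6 to 59.9 FPKM in cKO eggs.

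The oocyte identity of the pools was checked with 10 oocyte markers, all at 1 FPKM or above in each group mean. Their summed level was 9455 to 9549 FPKM in WT and 9162 to 10047 FPKM in cKO GV oocytes. In eggs it was 1900.4 to 2568 FPKM in WT and 2954 to 3717 FPKM in cKO. The summed level of 17 cumulus and granulosa markers was 13.8 to 18.3 FPKM over all 16 libraries. Cyp19a1, the aromatase gene, and Nr5a2, a nuclear receptor, made up most of it, and without both the sum was 2.45 to 5.05 FPKM in GV oocytes and 0.564 to 1.79 FPKM in eggs. Of the 5 defining markers, Foxl2, Amhr2 and Has2 did not exceed 0.1 FPKM in the mean of any group, Cyp19a1 averaged 8.10 to 13.7 FPKM, and Fshr averaged 0.482 FPKM in WT GV oocytes, 0.634 FPKM in cKO GV oocytes and at most 0.0232 FPKM in eggs. The 4 theca, blood and immune markers listed summed to at most 0.544 FPKM.

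In WT GV oocytes Gdf9 ranked 6th of all entries by mean FPKM, Oosp1 ranked 21st and Bmp15 26th. Gja4 ranked 127th, Fgf8 1146th and Kit 1584th. Cdh1, Bmp6 and Kitl lay between ranks 4425 and 7354, and Gja1 ranked 15101st. Gdf9 alone accounted for 0.689% of the summed FPKM of WT GV oocytes. In WT eggs Oosp1 ranked 5th with 1.35% of the summed FPKM, Gdf9 37th, Bmp15 41st and Fgf8 6706th.

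**Figure D1:**
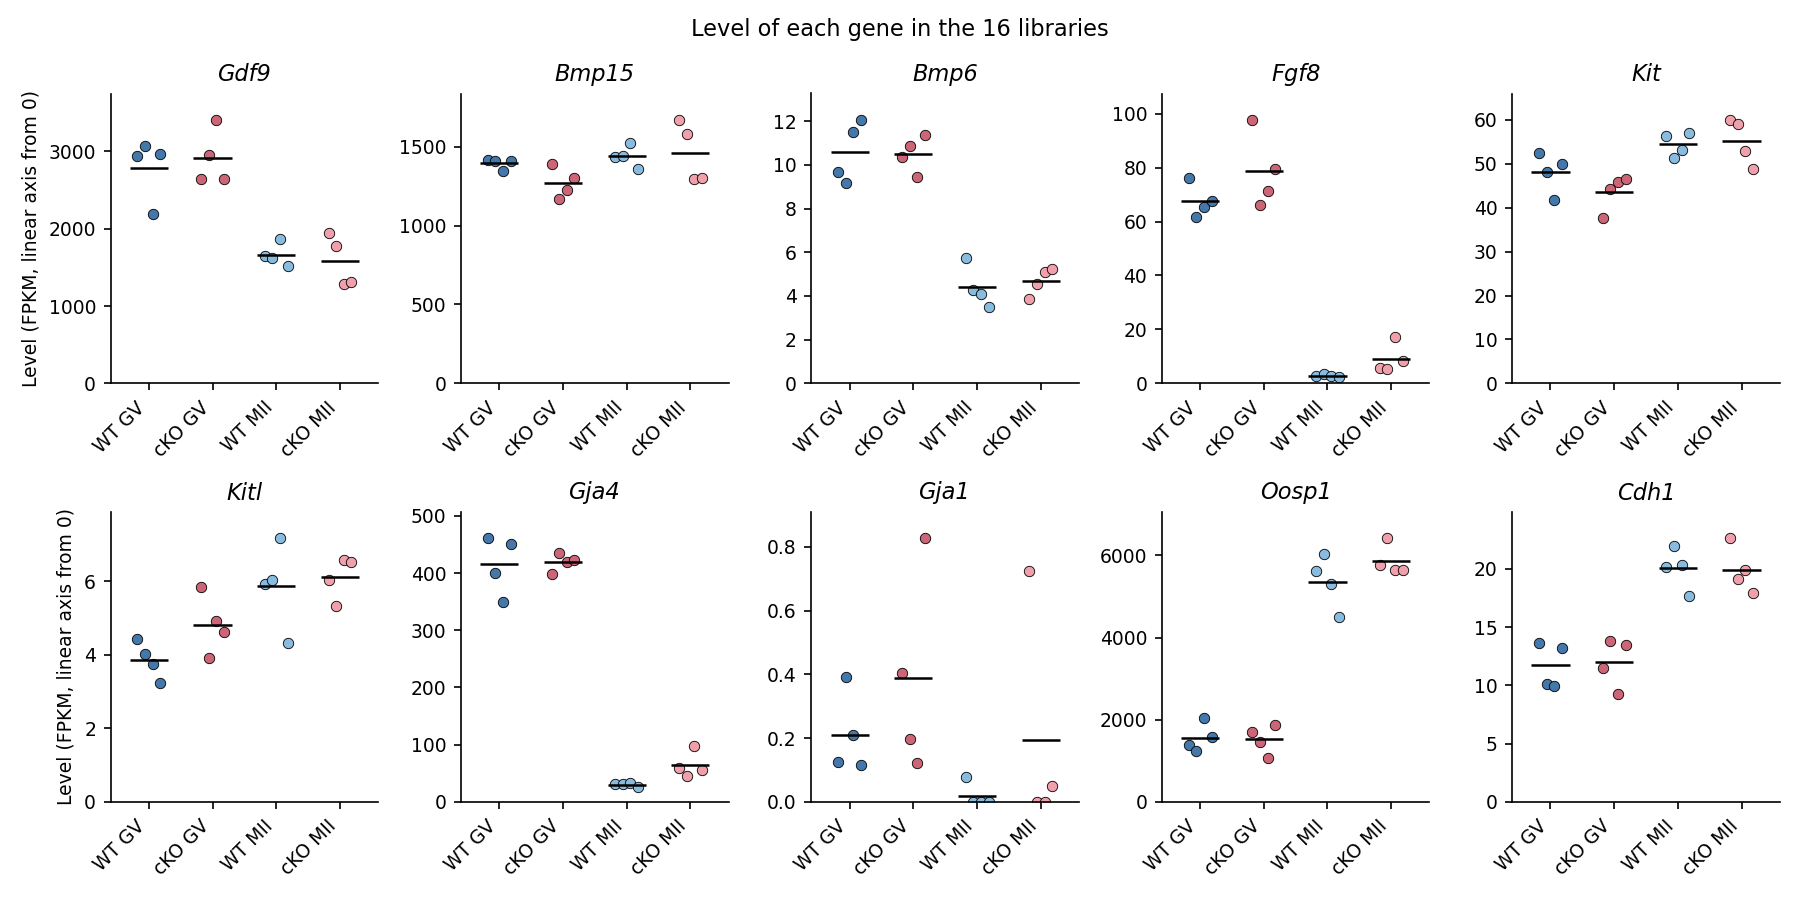
Level of each gene in FPKM on linear axes that start at 0, with 1 point per library (replicates 1 to 4 from left to right) and a line at the group mean. Fgf8 and Gja4 are high in both groups of GV oocytes and low in eggs, with all cKO eggs above all WT eggs, while Oosp1 is low in GV oocytes and high in eggs, and Bmp15 overlaps between the groups.

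Gdf9 mRNA fell between the GV and MII stages in both genotypes. In WT GV oocytes it stood at 2934, 3064, 2196 and 2967 FPKM in replicates 1 to 4, and in WT eggs at 1649.8, 1626, 1870.0 and 1519 FPKM. Every egg library lay below every GV library. In limma, a linear model with moderated variances fitted over all expressed entries, the WT difference was −0.74 on the log2 scale (SE 0.12, adjusted p = 0.000169), a fall to 59.7% of the GV mean in the FPKM as deposited.

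In cKO the Gdf9 values were 2639, 2951, 3407 and 2639 FPKM in GV oocytes and 1944, 1778, 1289 and 1309 FPKM in eggs. Again the stages did not overlap. The cKO difference was −0.90 (SE 0.16, limma adjusted p = 0.000652), and egg levels averaged 54.3% of the GV mean. When each library was rescaled to the median ratio of its expressed entries, the Gdf9 fall shrank to −0.28 in WT (limma adjusted p = 0.0412) and −0.47 in cKO (limma adjusted p = 0.0265). The genotypes overlapped at both stages.

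Bmp15, whose product pairs with GDF9, did not pass the threshold between stages in either genotype. WT GV oocytes had 1417, 1408, 1344 and 1406 FPKM and WT eggs 1436, 1442, 1524 and 1359 FPKM. cKO GV oocytes had 1387, 1170.4, 1227 and 1301 FPKM and cKO eggs 1669, 1579.6, 1293 and 1300.5 FPKM. The ranges of the stages overlapped in both genotypes. The difference from GV to MII was 0.05 in WT (95% interval −0.11 to 0.20, limma adjusted p = 0.564) and 0.19 in cKO (−0.05 to 0.44, limma adjusted p = 0.136).

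The ratio of Bmp15 to Gdf9 within a library does not depend on the scaling between libraries. It averaged 0.507 ± 0.0706 (SD, n = 4) in WT GV oocytes, with 0.612 in replicate 3 and 0.460 to 0.483 in the others. In WT eggs it averaged 0.867 ± 0.0360, in cKO GV oocytes 0.444 ± 0.0781 and in cKO eggs 0.936 ± 0.0732. Every egg library had a higher ratio than every GV library. The ratio was 1.72-fold higher in WT eggs than in WT GV oocytes and 2.13-fold higher in cKO eggs than in cKO GV oocytes, each with p = 0.0286 in a two-sided exact permutation test, the smallest value that 4 against 4 libraries can give, and an adjusted p of 0.0571 over the 4 comparisons of the ratio. Between genotypes the ratio differed by 0.871-fold in GV oocytes (exact permutation p = 0.286, adjusted p = 0.286) and by 1.08-fold in eggs (exact permutation p = 0.229, adjusted p = 0.286).

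**Figure D2:**
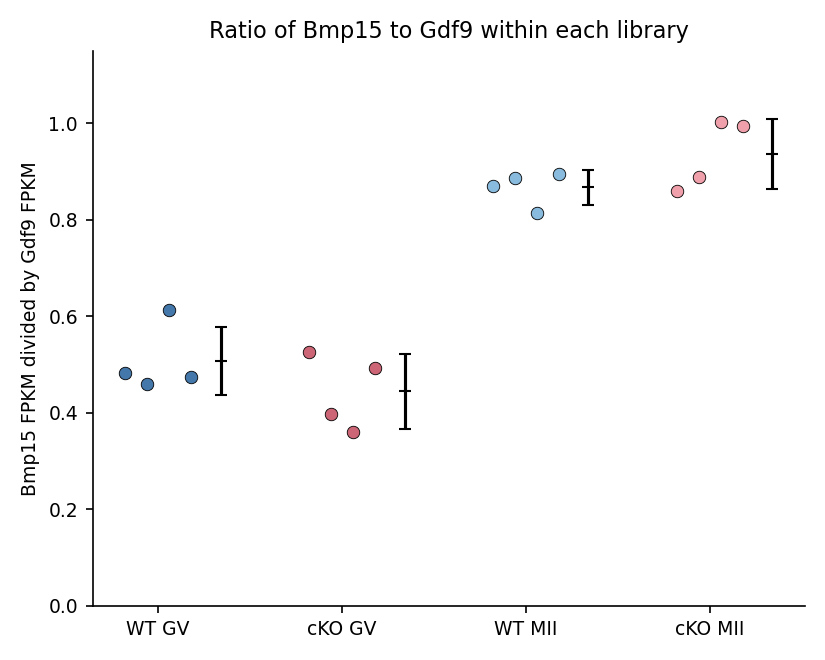
Ratio of Bmp15 FPKM to Gdf9 FPKM in each library, 1 point per library with the group mean and SD (n = 4) at its right, on an axis from 0. All GV libraries lie at 0.612 or below and all egg libraries at 0.815 or above.

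Bmp6, a further oocyte ligand of the BMP branch, was far rarer. It fell from 9.69, 9.15, 11.5 and 12.1 FPKM in WT GV oocytes to 5.72, 4.27, 4.08 and 3.52 FPKM in WT eggs. In cKO it fell from 10.4, 10.8, 9.45 and 11.4 FPKM to 3.84, 4.55, 5.11 and 5.23 FPKM. The stages did not overlap in either genotype. The log2 differences were −1.28 in WT (SE 0.16, limma adjusted p = 2.66e-05) and −1.17 in cKO (SE 0.13, limma adjusted p = 4.17e-05).

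Fgf8, the oocyte FGF that acts with BMP15 on the metabolism of cumulus cells, showed the steepest fall. WT GV oocytes had 76.1, 61.8, 65.4 and 67.8 FPKM, and WT eggs 2.83, 3.39, 2.65 and 2.21 FPKM. WT eggs kept 4.08% ± 0.720 (SD, n = 4) of the WT GV mean, and the log2 difference was −4.63 (SE 0.13, limma adjusted p = 6.95e-10), a 24.7-fold fall. These egg levels correspond to about 33 to 55 fragments per library.

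In cKO, Fgf8 stood at 97.7, 66.3, 71.3 and 79.5 FPKM in GV oocytes and at 5.80, 5.36, 17.2 and 8.14 FPKM in eggs. Every cKO egg library was above every WT egg library, and replicate 3 was the highest. The cKO fall was 9.58-fold, a log2 difference of −3.26 (SE 0.33, limma adjusted p = 2.54e-05), and cKO eggs kept 11.6% ± 7.02 of the cKO GV mean.

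Kit, the receptor, lay between 37.7 and 60.0 FPKM in all 16 libraries. It stood at 52.3, 48.0, 41.8 and 50.03 FPKM in WT GV oocytes and at 56.3, 51.3, 53.1 and 57.1 FPKM in WT eggs, and these ranges overlapped. In cKO it stood at 37.7, 44.3, 45.7 and 46.6 FPKM in GV oocytes and at 60.0, 59.0, 53.0 and 48.8 FPKM in eggs, without overlap. The cKO difference of 0.34 passed the threshold (SE 0.10, limma adjusted p = 0.0145) and the WT difference of 0.18 did not (SE 0.09, limma adjusted p = 0.0784). The test of the difference between them gave 0.16 (limma adjusted p = 0.595), so a larger rise in cKO was not shown.

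Kitl, the gene of the KIT ligand that granulosa cells supply, was detected at low levels. It stood at 4.42, 4.03, 3.75 and 3.24 FPKM in WT GV oocytes and at 5.94, 6.03, 7.16 and 4.33 FPKM in WT eggs. The WT difference of 0.59 passed the threshold (SE 0.17, limma adjusted p = 0.00769), although the lowest egg library lay within the GV range. In cKO the values were 5.83, 3.91, 4.91 and 4.62 FPKM in GV oocytes and 6.03, 5.33, 6.56 and 6.53 FPKM in eggs, a difference of 0.35 (SE 0.15, limma adjusted p = 0.0527).

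Kitl was higher in WT eggs than in WT GV oocytes. The summed level of all 17 cumulus and granulosa markers was 13.8 to 16.1 FPKM in WT GV oocytes and 15.6 to 18.3 FPKM in WT eggs. Without Cyp19a1 and Nr5a2 the sum was 2.45 to 3.91 FPKM in WT GV oocytes and 0.676 to 1.79 FPKM in WT eggs. Cyp19a1 rose with Kitl, from a mean of 8.10 FPKM in WT GV oocytes to 13.5 FPKM in WT eggs, and Nr5a2 fell from 3.64 to 2.38 FPKM (log2 −0.61, limma adjusted p = 0.000644, and −0.16 with limma adjusted p = 0.253 under median-ratio rescaling). The part of follicle cells in the Kitl level was not tested.

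Gja4, the connexin of the junctions between oocyte and cumulus cells, fell steeply. It stood at 461, 399, 349.6 and 451 FPKM in WT GV oocytes and at 30.9, 31.6, 33.3 and 25.6 FPKM in WT eggs, a 13.7-fold fall (log2 −3.77, SE 0.11, limma adjusted p = 7.71e-10). In cKO it stood at 399, 434, 419 and 422 FPKM in GV oocytes and at 58.9, 45.7, 97.8 and 55.8 FPKM in eggs, a 6.76-fold fall (log2 −2.76, SE 0.20, limma adjusted p = 4.09e-06). The GV ranges of the genotypes overlapped and the egg ranges did not.

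Gja1 was close to absent. It stood at 0.126, 0.391, 0.210 and 0.115 FPKM in WT GV oocytes and at 0.403, 0.198, 0.123 and 0.826 FPKM in cKO GV oocytes. Among eggs, WT replicate 1 had 0.0781 FPKM and the other WT libraries 0. The cKO eggs had 0.724 FPKM in replicate 1, 0.0490 FPKM in replicate 4 and 0 in the others. These values correspond to 33 fragments or fewer per library, and Gja1 was below the mean of 1 FPKM needed for testing in every comparison.

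Oosp1, which encodes a protein secreted by the oocyte, rose the most. It stood at 1392, 1238, 2042 and 1569 FPKM in WT GV oocytes and at 5618, 6028, 5294 and 4499 FPKM in WT eggs, a 3.48-fold rise (log2 1.80, SE 0.15, limma adjusted p = 1.08e-06). In cKO it rose from 1703, 1461, 1065 and 1866 FPKM to 5762, 6415, 5639.7 and 5639 FPKM, a 3.93-fold rise (log2 1.97, SE 0.16, limma adjusted p = 7.62e-06). The stages were far apart in both genotypes, and the genotypes overlapped at both stages.

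Cdh1 rose less. WT GV oocytes had 13.6, 10.1, 9.92 and 13.2 FPKM and WT eggs 20.2, 22.0, 20.3 and 17.7 FPKM, and cKO GV oocytes had 11.5, 13.8, 9.25 and 13.4 FPKM and cKO eggs 22.6, 19.1, 19.9 and 17.9 FPKM. Neither genotype showed an overlap between stages. The log2 differences were 0.79 in WT (SE 0.13, limma adjusted p = 0.000210) and 0.74 in cKO (SE 0.14, limma adjusted p = 0.00125).

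Across the comparison of MII with GV in WT, 7 of the 9 tested genes passed the threshold, 3 higher and 4 lower in eggs, where 78.5% of all 10475 entries tested passed, 26.1% as higher and 52.4% as lower, and 6 of 9 did not overlap between stages, where 72.7% of all entries did not. In cKO 7 of 9 passed, again 3 higher and 4 lower, where 74.0% of all 10748 entries did, 23.0% as higher and 51.0% as lower, and 7 of 9 did not overlap, where 68.6% of all entries did not. The shares are close to those of the whole table. The median log2 difference of all entries was −0.44 in WT and −0.42 in cKO, and that of the 9 genes was 0.05 and 0.19. When each library was rescaled to the median ratio of its expressed entries, which moved the median of all entries to 0.03 in WT and 0.00 in cKO, Bmp15 also passed as higher in eggs (0.50, limma adjusted p = 0.000205 in WT, 0.62, limma adjusted p = 0.00139 in cKO), as did Kit in WT (0.64, limma adjusted p = 3.46e-05) and Kitl in cKO (0.77, limma adjusted p = 0.000887). Kit in cKO went from 0.34 to 0.76 and Kitl in WT from 0.59 to 1.04. Gdf9, Bmp6, Fgf8 and Gja4 remained lower and Oosp1 and Cdh1 higher under that scaling, but besides Gdf9 the sizes moved for Bmp6, to −0.83 in WT and −0.75 in cKO, and for Cdh1, to 1.24 in WT and 1.16 in cKO. In the same rescaling, the higher share of all calls went from 33.3% to 49.9% in WT and from 31.1% to 49.5% in cKO.

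**Figure D3:**
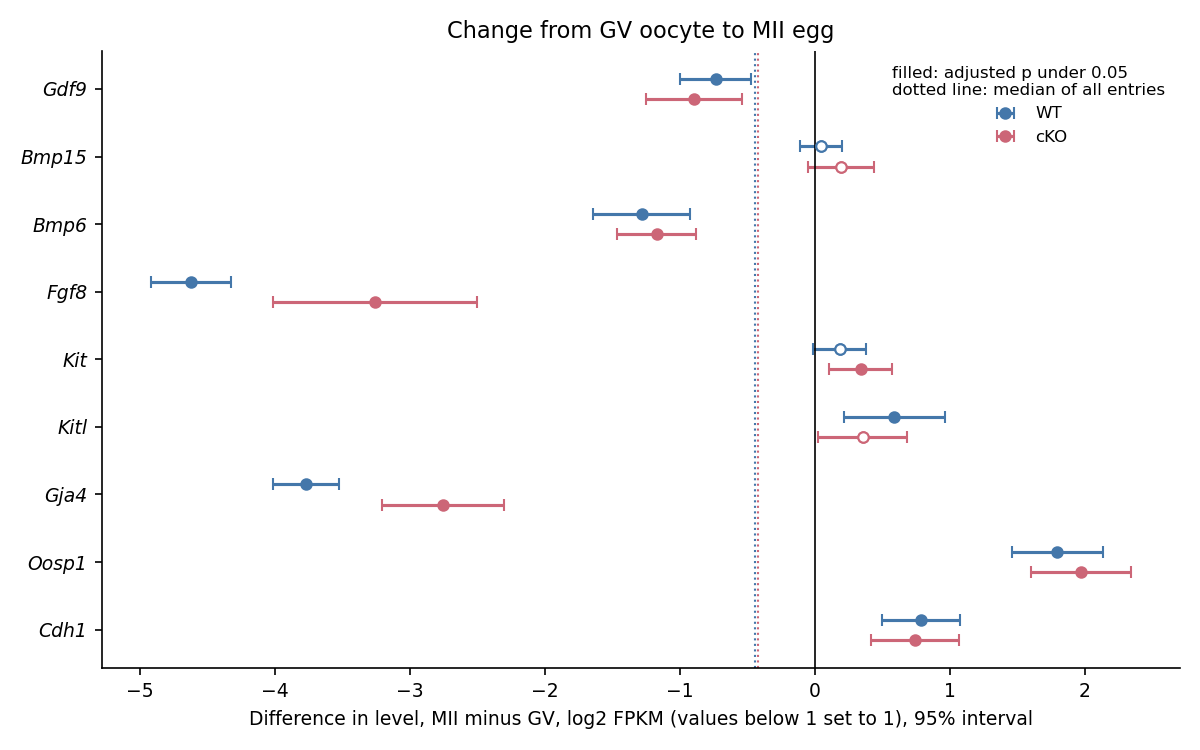
Log2 difference in FPKM between MII eggs and GV oocytes for the 9 tested genes, with the 95% interval of the limma fit, in WT and in cKO. Filled points passed an adjusted p of 0.05, dotted lines mark the median of all entries (−0.44 in WT, −0.42 in cKO), and Fgf8 and Gja4 lie farthest to the left and Oosp1 farthest to the right in both genotypes.

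Fgf8 and Gja4, the genes that fell the most, were also the only ones of the 10 with 0 CPEs in the annotated 3′ UTR. The annotated end of Fgf8 held no hexamer, and whether oocytes use that end was not tested. Among tested genes with a 3′ UTR of at least 100 nt, 36.8% held 0 CPEs in WT. Their median difference from GV to MII in WT was −1.11, against −0.08 for genes with 1 or more. In cKO the medians were −0.99 and −0.13. Oosp1, with a short 3′ UTR and 1 element, rose, while Gdf9, with 1 element 10 bases from its hexamer, fell. Longer UTRs hold more matches, and with oligo-dT priming the levels can also follow poly(A) tail length. The part of CPEs, of UTR length and of tail length in these differences was not tested.

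The comparison of cKO with WT in GV oocytes asked whether loss of Psma7 changed the fully grown oocyte. None of the 9 tested genes passed the threshold, and the genotypes overlapped in each of the 9, where 0.118% of all 11062 entries passed and 6.67% did not overlap. At an unadjusted p under 0.05 the count of these genes was also 0, while 843 entries of the whole table were higher and 339 lower. The log2 differences ran from −0.14 for Kit (95% interval −0.37 to 0.09) to 0.31 for Kitl (−0.04 to 0.67). For Gdf9 the interval was −0.23 to 0.36, for Bmp15 −0.32 to 0.05, for Gja4 −0.20 to 0.24 and for Fgf8 −0.07 to 0.48. A change of 1 log2 unit in either direction lay outside the interval of each of the 9.

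In eggs, Gja4 and Fgf8 were higher in cKO. They were 2 of the 9 tested genes, where 8.02% of all 9492 entries passed the threshold and 6.53% passed as higher. These 2 did not overlap between genotypes, where 20.7% of all entries did not. Gja4 was 2.05-fold higher (log2 1.03, 95% interval 0.57 to 1.503, limma adjusted p = 0.0309), with group means of 64.6 ± 22.9 FPKM (SD, n = 4) in cKO and 30.4 ± 3.30 FPKM in WT. Fgf8 was 2.97-fold higher (log2 1.57, 0.80 to 2.34, limma adjusted p = 0.0333), with 9.13 ± 5.52 FPKM in cKO and 2.77 ± 0.488 FPKM in WT.

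cKO replicate 3 was the highest egg library for both genes, at 97.8 FPKM for Gja4 and 17.2 FPKM for Fgf8, and it also had the most entries at 1 FPKM or above among eggs, 10013. Psma7 in that library was 34.98 FPKM, between the lowest and highest cKO eggs. Without it Gja4 remained higher (log2 0.81, limma adjusted p = 0.0195), as did Fgf8 (1.21, limma adjusted p = 0.0252). Neither gene passed when any 1 of the 4 WT egg libraries was left out, with limma adjusted p = 0.0673 to 0.0904 for Gja4 and 0.0673 to 0.0975 for Fgf8. Without cKO replicate 1 they were at 0.0578 and 0.0527, and without cKO replicate 4 Fgf8 was at 0.0597. The log2 difference stayed between 0.81 and 1.18 for Gja4 and between 1.21 and 1.77 for Fgf8 in all 8 of these fits.

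The summed oocyte markers were at 2954 to 3717 FPKM in cKO eggs and 1900.4 to 2568 FPKM in WT eggs. The zona genes differed most in FPKM, with means in WT and cKO eggs of 406 and 948 for Zp3, 334 and 604 for Zp2 and 148 and 238 for Zp1. Mos, Oog1, Nobox and Figla also had higher means in cKO eggs. Nlrp5 (411.0 and 411.5), Ddx4 (15.98 and 16.02) and Dazl (490 and 477) were nearly alike. Of the 10, Zp3 and Figla passed as higher in cKO eggs, where 6.53% of all 9492 entries did. More entries reached 1 FPKM in cKO eggs, 9387 to 10013 per library, than in WT eggs, 9044 to 9366. The part of a mixture of stages in the Gja4 and Fgf8 levels was not tested.

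The other 7 genes did not pass in eggs. Their log2 differences ran from −0.10 for Gdf9 (95% interval −0.42 to 0.23) to 0.14 for Oosp1 (−0.09 to 0.37), with 0.01 for Bmp15 (−0.21 to 0.23) and 0.02 for Kit (−0.17 to 0.20). Each of these intervals excludes a change of 1 log2 unit in either direction. For Bmp6 the interval was −0.29 to 0.49 and for Kitl −0.28 to 0.44.

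**Figure D4:**
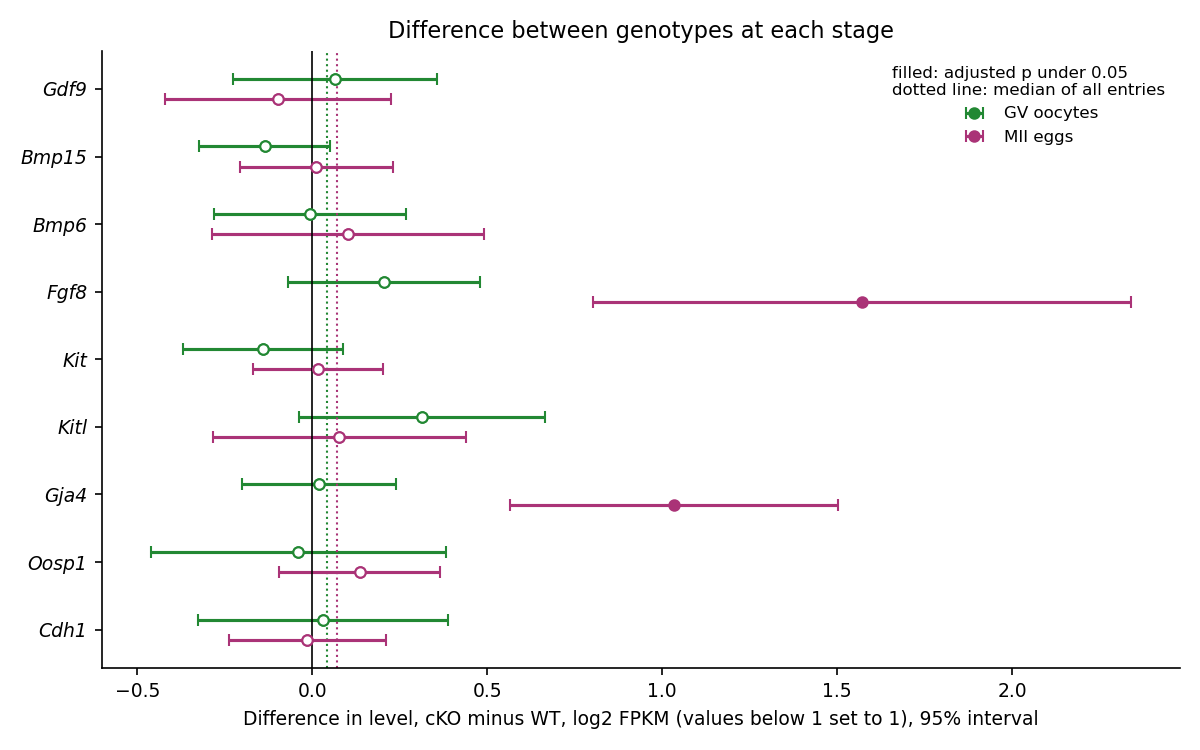
Log2 difference in FPKM between cKO and WT for the 9 tested genes, with the 95% interval of the limma fit, in GV oocytes and in eggs. Filled points passed an adjusted p of 0.05; Gja4 (1.03) and Fgf8 (1.57) in eggs are the only ones.

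Whether the genotype difference in eggs differed from that in GV oocytes was tested as an interaction over all 16 libraries. None of the 9 genes passed, where 1.26% of 10615 entries did, and 2 had an unadjusted p under 0.05. These were Gja4, at 1.02 (95% interval 0.50 to 1.53, limma adjusted p = 0.0501), and Fgf8, at 1.37 (0.56 to 2.18, limma adjusted p = 0.0825). With cKO MII replicate 2 left out, Gja4 gave 1.16 (limma adjusted p = 0.0073) and Fgf8 1.57 (limma adjusted p = 0.0201), and with cKO MII replicate 3 left out they gave 0.80 (0.0279) and 1.01 (0.0457). These were the only 2 of 16 fits leaving out 1 library in which either gene passed. Over the 16, the limma adjusted p ran from 0.0073 to 0.104 for Gja4 and from 0.0201 to 0.148 for Fgf8. The other 7 genes ran from −0.24 for Kitl to 0.18 for Oosp1 with all libraries.

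The share of the GV level that was left in eggs describes the same values. WT eggs kept 7.31% ± 0.794 (SD, n = 4) of the Gja4 level of WT GV oocytes and cKO eggs 15.4% ± 5.47 of that of cKO GV oocytes. For Gdf9 the shares were 59.7% ± 5.27 and 54.3% ± 11.4, and for Bmp6 41.5% ± 8.86 and 44.6% ± 6.03, with overlap between genotypes for both.

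**Figure D5:**
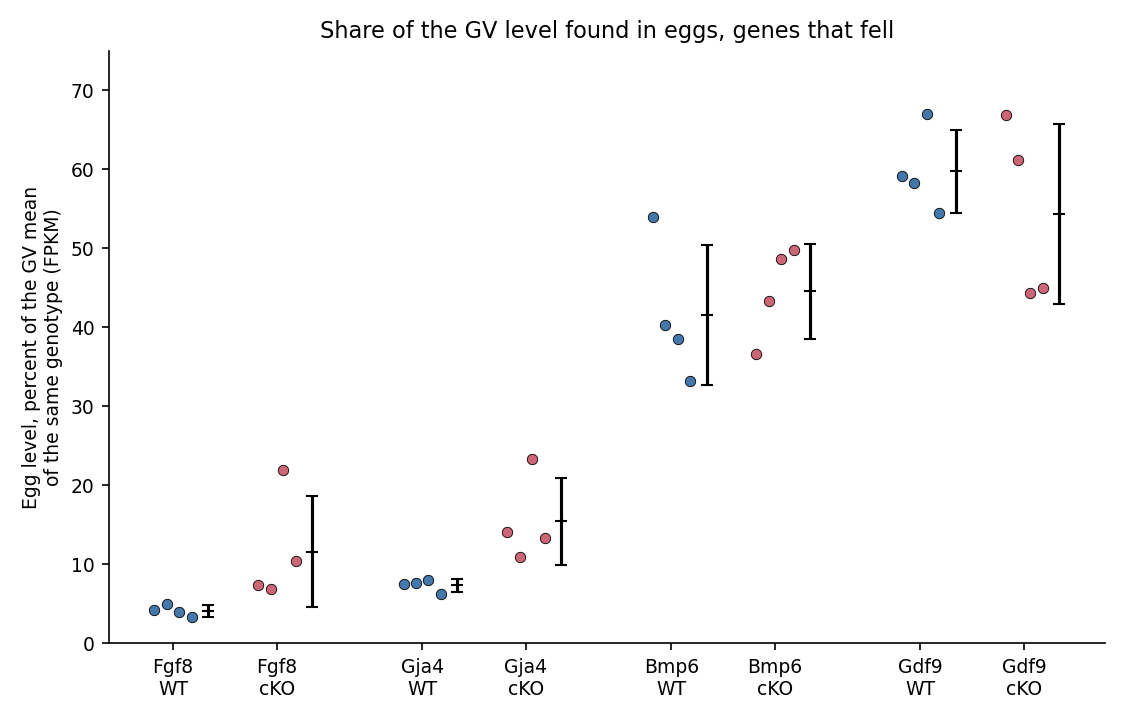
Level in each egg library as a percent of the mean GV level of the same genotype, for the 4 genes that fell, with 1 point per library and the mean and SD (n = 4) at the right of each set. For Fgf8 and Gja4 the cKO points lie above all WT points, and for Bmp6 and Gdf9 the genotypes overlap.

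Genes of the families and pathways of these signals were followed with 6 lists. The libraries are of oocytes and eggs, so these levels do not describe the follicle cells on which the oocyte ligands act. Between stages, 26.1% of all entries tested in WT were higher in eggs and 52.4% lower, and in cKO 23.0% and 51.0%. Of 14 receptors and SMADs of the TGF-beta family, 11 were tested in WT, and 4 were higher and 3 lower in eggs, or 8 and 1 under median-ratio rescaling. Bmpr2, the type II receptor for BMP15 and GDF9, rose from 14.1 ± 2.75 to 29.98 ± 2.56 FPKM (log2 1.11, limma adjusted p = 2.20e-05). Smad2 fell from 9.95 ± 0.865 to 5.66 ± 0.958 FPKM (−0.83, limma adjusted p = 0.000222) and Smad5 from 2.06 ± 0.382 to 1.21 ± 0.329 FPKM (−0.74, limma adjusted p = 0.00453), and under rescaling Smad2 was at −0.37 (limma adjusted p = 0.0313) and Smad5 at −0.34 (limma adjusted p = 0.147). In cKO 5 of 12 were higher and 2 lower, or 8 and 0 under rescaling, with Bmpr2 at 1.21, Smad5 at −0.72 and Smad2 at −0.64, and the median of the list was 0.15 in both genotypes, where that of all entries was −0.44 and −0.42.

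Of the convertases, antagonists and other ligands of that family, 3 of 13 were tested, and all 3 passed in both genotypes, where 78.5% of all entries in WT and 74.0% in cKO did. Furin, which cleaves the proproteins of this family, was higher in eggs (1.08 in WT, 0.48 in cKO), and Pcsk6, a related convertase, was lower (−1.53 in WT, −1.08 in cKO). Tgfb2 rose from 77.6 ± 3.20 to 112 ± 13.5 FPKM in WT (0.52, limma adjusted p = 0.000439).

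Among FGF receptors and feedback genes, 3 of 6 tested were lower and 0 higher in WT eggs, and 3 were lower and 1 higher in cKO, where 52.4% and 51.0% of all entries were lower. Under median-ratio rescaling 1 was lower and 3 higher in WT, and 1 lower and 2 higher in cKO. Spry1, an inhibitor of FGF signalling, fell from 39.2 ± 5.65 to 5.19 ± 1.199 FPKM in WT (−2.93, limma adjusted p = 4.69e-08) and from 42.9 ± 6.72 to 9.71 ± 5.14 FPKM in cKO (−2.29, limma adjusted p = 0.000243). A link to the fall of Fgf8 was not tested. Fgfr1 was at −0.39 and Spry4 at −0.26 in WT, and both turned positive under rescaling, at 0.06 and 0.19, without passing the threshold.

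Of the 16 entries tested for the pathway from KIT to PI3K, 7 were higher and 4 lower in WT eggs, and 5 were higher and 5 lower in cKO eggs, where 26.1% and 52.4% of all entries in WT and 23.0% and 51.0% in cKO were. Under median-ratio rescaling the counts were 9 higher and 1 lower in each genotype. Pik3r1, a regulatory subunit, rose from 9.56 ± 1.64 to 21.5 ± 1.38 FPKM in WT (1.18, limma adjusted p = 6.70e-06). Pik3cd, a catalytic subunit, had 2 entries. The lesser one went from 3.49 ± 1.094 FPKM in WT GV oocytes to 0.0544 ± 0.0154 FPKM in WT eggs, and since values under 1 FPKM were set to 1, its fitted difference of −1.74 understates that fall. The other went from 25.5 ± 4.64 to 14.5 ± 3.47 FPKM (−0.82, limma adjusted p = 0.00186, and −0.37 with limma adjusted p = 0.0617 under rescaling).

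Of the other connexins, cadherins and catenins, 4 of 9 tested were higher and 3 lower in WT eggs, and 3 of 10 were higher and 4 lower in cKO, where the shares over all entries were 26.1% and 52.4% in WT and 23.0% and 51.0% in cKO. Under median-ratio rescaling 5 were higher and 3 lower in WT, and 5 and 2 in cKO. Gja3, another connexin, was at 1.64 ± 0.422 FPKM in cKO GV oocytes and 0.784 ± 0.382 FPKM in cKO eggs (−0.57 with values under 1 FPKM set to 1, limma adjusted p = 0.0225, and −0.31 with limma adjusted p = 0.191 under rescaling). In WT, Gja3 was not among the entries that passed, and under rescaling it was not among those tested. A Gja3 fall particular to cKO was not shown. Ctnnd1, a catenin, rose by 1.44 in WT (limma adjusted p = 3.38e-05) and 0.86 in cKO. Cdh3, P-cadherin, fell by 1.34 in WT and by 1.36 in cKO, opposite to Cdh1 in log2 units. The related gene Oosp3 rose with Oosp1, from 632 ± 137 to 1929 ± 215 FPKM in WT (1.63, limma adjusted p = 1.44e-06), while Oosp2 fell from 287 ± 77.5 to 168.5 ± 18.8 FPKM (−0.74, limma adjusted p = 0.00233, and −0.28 with limma adjusted p = 0.198 under rescaling).

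Between genotypes no gene of the 6 lists passed in GV oocytes, where 0.118% of all entries did. In eggs 1 passed, where 8.02% of all entries did. That was Mtor, a kinase downstream of PI3K, at 2.24 ± 0.166 FPKM in cKO and 3.08 ± 0.187 FPKM in WT (log2 −0.46, limma adjusted p = 0.0477). Another entry of Mtor was not among those tested in eggs. No gene of these lists passed the interaction, where 1.26% of all entries did.

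The entries whose pattern over the 16 libraries was most like that of a given gene were found by Pearson correlation of log2 FPKM over 10614 entries, as a description, and the 16 points fall into 4 groups that share a genotype or a stage. For Gdf9 they were Sdc1 (r = 0.987), Ammecr1l (0.986) and Traip (0.984). For Kit they were Rnf219 (r = 0.896), 6030458C11Rik (0.889) and Ppp3r1 (0.874), and for Bmp15 Baz2a (r = 0.840), Ocrl (0.828) and Mitf (0.816).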

How the data were processed

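The 16 RNA-seq libraries comprised 4 biological replicates of each genotype at each stage. The cDNA was made by the Smart-seq2 method with oligo-dT priming. The authors deposited 1 table of FPKM values, which they calculated with Cufflinks 2.2.1. The submitters' processing notes name TopHat2 2.1.1 and the mm10 build, and the gene annotation is not given in the sources used here. The values were used as deposited. Depth was estimated from the steps between FPKM values below 0.6, and single genes carry no counting interval.

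Values under 1 FPKM were set to 1 and log2 transformed, and entries averaging 1 FPKM or more in a comparison were tested with limma 3.58.1 in R 4.3.3 (moderated variances with a trend), 2-sided, with Benjamini-Hochberg adjustment over all entries tested and a threshold of 0.05. Intervals of 95% are for single genes, without adjustment. The Bmp15 to Gdf9 ratio was compared by exact permutation, and its comparison between stages was added after the data were seen. The fits were run on simulated data with the same spread for all entries and large changes. That checks the code and does not measure the rate of false calls in these libraries. The same replicate number in 2 groups was not taken as a pair. The 10 genes, the pathway lists and the marker lists were chosen with earlier results of these data known. From each pathway list the text names the genes past the threshold with the largest differences, at most 3 per comparison, and some genes that this rule names are not reported here. Positions and 3′ ends came from GENCODE M21 and promoters from RefSeq (GRCm38.p6), which held 7 of the 10 genes. Nothing in the labels says that the pools of a group came from separate animals, so p-values measure the spread between these libraries. Alternatives are given in the closing section.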

Additional observations from a re-analysis of the deposited data

Results flagged for a closer look

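In 44 sets of 4 libraries (10 genes and the Bmp15 to Gdf9 ratio in 4 groups) 6 had 1 library far from the other 3, where chance gives about 1 in 20 for independent sets. These sets are not independent, since the ratio is formed from Gdf9 and Bmp15. A set with a single value above 0, as for Gja1 in WT eggs, is always flagged. The count is therefore not to be read against that rate. WT GV replicate 3 was the lowest for Gdf9, at 2195.6 FPKM against 2934 to 3064 FPKM in the others, and for Bmp15, at 1343.9 FPKM against 1406 to 1417 FPKM, and it had the highest Bmp15 to Gdf9 ratio, 0.612 against 0.460 to 0.483. Oosp1 in cKO MII replicate 2 was 6415 FPKM against 5639 to 5762 FPKM. Gja1 was 0.0781 FPKM in WT MII replicate 1 against 0 in the other WT eggs, and 0.724 FPKM in cKO MII replicate 1 against at most 0.0490 FPKM in the other cKO eggs, all of which rest on few fragments.

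For 2 of the 10 oocyte markers the genotype difference in eggs differed from that in GV oocytes, where 1.26% of all 10615 entries passed this test. The interaction was 1.14 on the log2 scale for Zp3, a zona pellucida gene whose promoter drives the Cre (SE 0.22, limma adjusted p = 0.0235), and 1.68 for Figla, an oocyte transcription factor (SE 0.38, limma adjusted p = 0.0425). The cKO to WT difference in GV oocytes was 0.06 for Zp3 and −0.11 for Figla, and in eggs 1.196 and 1.57.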

How the results depend on the processing

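Alternatives to the floor, the filter, the scaling, the block, the samples fitted and the treatment of repeated entries kept the direction and the side of the threshold of most single-gene results. With the replicate number as a block, the eggs had 0 of these genes called between genotypes (limma adjusted p = 0.0502 for Gja4 and 0.0655 for Fgf8), and Kit in cKO went to 0.0534 between stages. The entries called under the block were 6 against 13 in GV oocytes, 108 against 761 in eggs and 60 against 134 in the interaction. Deviations of same-numbered libraries correlated at −0.496 to 0.285, so the numbers were not used as pairs. The block changed no other call among these genes.

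In GV oocytes the entries called between genotypes were 3 with no filter on the mean, 6 with a mean of at least 5 FPKM, 7 with median-ratio rescaling and 157 with all 16 libraries in 1 fit, and in eggs they were 1582 in that fit. With a mean of at least 5 FPKM, where fewer entries were tested, 5112 in place of 8224 entries were called between stages in WT and 4962 in place of 7954 in cKO. The interaction had 83 entries called with 1 FPKM added, 29 with no filter and 208 with a mean of at least 5 FPKM. With no filter, most residual variances were 0 and the moderated fit is unreliable. In the interaction 1 of these genes, Gja4, passed with a floor of 0.1 FPKM, a mean of at least 5 FPKM, median-ratio rescaling or summed entries (limma adjusted p = 0.0499, 0.0379, 0.0289 and 0.0494). Under rescaling the cKO to WT difference turned to −0.018 for Gja4 and −0.0064 for Cdh1 in GV oocytes and to −0.056 for Bmp15 and −0.051 for Kit in eggs, none past the threshold. Rescaling moved the higher share of calls from 84.6% to 71.4% in GV oocytes and from 81.5% to 65.7% in eggs. Kitl in cKO between stages also passed with a floor of 0.1 FPKM and with 1 FPKM added (limma adjusted p = 0.0491 and 0.0487). The cause of these changes was not tested.

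Leaving out each library in turn gave 5 to 19 entries called in GV oocytes. In eggs it gave from 3 (WT MII replicate 3 left out) to 1160 (cKO MII replicate 2 left out), with 0 to 2 of these genes. The interaction had 41, without cKO GV replicate 3, to 651, without cKO MII replicate 2, with 0 to 2 of these genes. Differences that changed sign in these fits ran in GV oocytes from −0.047 to 0.11 for Gdf9, −0.074 to 0.059 for Bmp6, −0.060 to 0.072 for Gja4, −0.15 to 0.12 for Oosp1 and −0.044 to 0.15 for Cdh1. In eggs they ran from −0.055 to 0.067 for Bmp15, −0.025 to 0.075 for Kit, −0.061 to 0.18 for Kitl and −0.078 to 0.035 for Cdh1, and in the interaction from −0.16 to 0.030 for Cdh1. None of these passed the threshold. Between stages Kit in WT passed without WT GV replicate 1 (limma adjusted p = 0.0462), and Kitl in cKO without cKO GV replicate 1 (0.0184) or cKO MII replicate 2 (0.0424). Levels near or below 1 FPKM, as for Gja1, rest on few fragments, and differences there were not detectable at this depth.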
